A study of Mus musculus with 2 samples.

Results

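The 10 genes described here make sialic acid and attach it to glycans: Gne, Nans, Cmas, Slc35a1, St3gal1, St3gal2, St3gal3, St3gal4, St3gal6 and St6gal1. They were chosen by name, and all 10 were found among the 18685 genes of the single-cell matrix of SIGLEC15 antibody-treated tumours. Each gene was described on its own, from its summed unique molecular identifiers (UMIs, 1 per captured RNA molecule) and its share of cells in each of the 30 clusters named by the authors. Tumours were grafts of Hep1-6, a mouse hepatoma line, in male wild-type C57BL/6 mice aged 6 to 8 weeks that were injected intraperitoneally with the SIGLEC15 antibody or with IgG. Each group had 3 mice in the design text and 1 library, in which bead-enriched CD45+ cells and unsorted cells were mixed in equal parts. For 0 of the 10 genes was the row complete in the IgG matrix used here, so the antibody was not compared with IgG, and every value below comes from the antibody library. With 1 library there is no replicate check and no test, and all 95% intervals cover counting error only.

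Sialic acid is made in the cytosol from an amino sugar, activated with a nucleotide in the nucleus, carried into the Golgi and added to the ends of glycans by sialyltransferases. Gne catalyses the committed first steps, Nans forms the phosphorylated acid, Cmas activates it and Slc35a1 is the Golgi transporter. St3gal1 and St3gal2 act mainly on galactose of O-glycans, and St3gal2 also on glycolipids. St3gal3, St3gal4 and St3gal6 act mainly on galactose of lactosamine chains, and in mouse leukocytes St3gal4 and St3gal6 help to build the ligands by which neutrophils roll on selectins. St6gal1 caps lactosamine of N-glycans with the linkage that the B cell receptor CD22 reads. Sialylated glycans are what the Siglec receptors of immune cells bind.

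In total 74168827 UMIs came from 5482 cells, and the median cell had 13714.5 UMIs (553 to 46558). Tumour clusters had 3213 cells at a median of 20428 UMIs, immune clusters 2022 cells at 2142 and stromal clusters 150 cells at 9775. The clusters named Unknown and Adipocyte were left out of these classes. Between the antibody and IgG cell lists, 11 barcodes were shared. Levels are CPM, the UMIs of a gene scaled to the same total in every cluster. A gene was called when its CPM differed at least 2-fold between 2 cell groups that together held at least 50 of its UMIs. The authors formed the clusters from the same cells, so differences between clusters are given as descriptions.

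Some cluster names were matched only in part by the 10 most specific genes of the cluster. CD3_T had 4 natural killer cell markers and 0 T cell markers among its 10 most specific genes. Its natural killer list summed to 4488.8 CPM and its T cell list to 3312.7 CPM. Macrophage_2 had 2 dendritic cell markers and 0 macrophage markers there, and DC had 2 monocyte markers and 1 dendritic cell marker. The macrophage list of Macrophage_2 summed to 8734 CPM and its dendritic cell list to 64.6 CPM. In DC the same lists summed to 3184 and 130.5 CPM, and in tumour clusters the macrophage list reached 12544 CPM. These sums therefore do not settle the name of Macrophage_2. Macrophage_1, Macrophage_3 and CD8_T_1 also had 0 markers of their named type among their 10 most specific genes, so a 0 alone does not go against a name. MDSC_1 to MDSC_4 (MDSC, myeloid-derived suppressor cells) were neutrophil-like. Their 6 neutrophil markers summed to 22654 CPM in MDSC_1, the lowest, and 140939 CPM in MDSC_2, the highest. In macrophage clusters the same list summed to 431 to 4109 CPM. All 6 were also detected in macrophages and tumour cells, so detection alone does not set MDSC apart. Fibroblast&Endothelial_2 had 2 endothelial markers among its 10 most specific genes, as its name allows.

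Promoter windows are printed for St3gal4 and St3gal6, both higher in neutrophil-like MDSC than in macrophages, and for Cmas. Cmas was highest in Tumor_1, as was St3gal1, though the Cmas interval there overlapped those of other clusters. Each window holds 250 bases before and 50 bases after an annotated start, from RefSeq on GRCm38.p6, written 5′ to 3′ on the gene's strand. The table gave 11 windows for 7 of the 10 genes, and Nans, St3gal1 and St3gal2 are named only. Capitals mark GAGGAA, a core bound by the myeloid factor PU.1, and ACGTG, a core of hypoxia response elements, on either strand in all 4 windows.
St3gal4, chr9:35116815-35117114, minus strand: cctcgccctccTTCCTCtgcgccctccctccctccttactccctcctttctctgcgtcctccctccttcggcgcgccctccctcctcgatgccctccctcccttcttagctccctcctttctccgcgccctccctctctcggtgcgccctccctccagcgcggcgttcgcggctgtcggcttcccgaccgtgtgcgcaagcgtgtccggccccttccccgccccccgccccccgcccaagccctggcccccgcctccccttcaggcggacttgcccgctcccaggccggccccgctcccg
St3gal6 first window, chr16:58523377-58523676, minus strand: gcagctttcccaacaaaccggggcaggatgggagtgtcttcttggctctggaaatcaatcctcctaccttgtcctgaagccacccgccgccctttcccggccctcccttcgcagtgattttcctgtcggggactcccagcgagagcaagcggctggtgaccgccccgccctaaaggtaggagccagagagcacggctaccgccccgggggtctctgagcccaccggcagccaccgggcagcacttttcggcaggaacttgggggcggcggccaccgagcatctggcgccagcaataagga
St3gal6 second window, chr16:58524204-58524503, minus strand: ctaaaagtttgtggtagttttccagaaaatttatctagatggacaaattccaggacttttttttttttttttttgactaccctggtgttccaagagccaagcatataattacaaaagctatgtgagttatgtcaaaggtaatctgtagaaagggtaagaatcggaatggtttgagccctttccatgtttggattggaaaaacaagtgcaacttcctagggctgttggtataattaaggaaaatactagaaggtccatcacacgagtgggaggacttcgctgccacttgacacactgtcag
Cmas, chr6:142756436-142756735, plus strand: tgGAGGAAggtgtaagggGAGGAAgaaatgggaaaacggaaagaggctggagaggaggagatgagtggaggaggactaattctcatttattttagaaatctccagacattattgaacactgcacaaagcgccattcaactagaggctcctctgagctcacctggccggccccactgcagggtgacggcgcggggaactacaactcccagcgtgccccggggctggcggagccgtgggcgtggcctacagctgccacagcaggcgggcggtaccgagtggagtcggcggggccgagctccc

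The Cmas window held 2 GAGGAA matches, at -248 and -232 from the start, the St3gal4 window held 1, at -239, and both St3gal6 windows held 0. ACGTG had 0 matches in the printed windows. The window of St3gal3, which is not printed, also held 2 GAGGAA matches. Any link between these matches and the levels of the genes was not tested. GAGGAA was present in 28.3% of all 32851 windows and in 3 of the 11 windows of the listed genes, and ACGTG in 19.6% of all windows and 1 of the 11. One more search was added only after ACGTG had given no match in Cmas: the wider hypoxia core, ACGTG or GCGTG. It was present in 43.8% of all windows and 6 of the 11, with 2 matches in Cmas, and it is not marked in the printed sequence. These 3 motif searches were all that were run, and each was chosen with the expression values known. A match describes letters and is not a binding site.

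In hepatoma cells, 3 of the 4 genes for making and moving sialic acid, together with St3gal1, were called higher than in immune cells. So were 20.2% of 12470 genes. St3gal4 and St3gal3 were called lower, as were 25.1% of genes. The calls of Nans, St3gal1 and St3gal3 were lost in some alternatives. Slc35a1 stood at 28.8 CPM in tumour cells and 8.41 CPM in immune cells, a ratio of 3.42 (2.70 to 4.40). Gne stood at 14.3 CPM in tumour cells and 6.16 CPM in immune cells, a ratio of 2.32 (1.75 to 3.13). Nans, at 142 CPM in tumour cells and 70.3 CPM in immune cells, had a ratio of 2.03 (1.86 to 2.21), just past the 2-fold line, and with cells of at least 2000 UMIs it was 1.87. The activating enzyme Cmas differed less, at 57.7 CPM in tumour cells and 41.6 CPM in immune cells (ratio 1.39, 1.24 to 1.55).

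Among the sialyltransferases, St3gal1 had 63.3 CPM in tumour cells and 29.2 CPM in immune cells, a ratio of 2.17 (1.91 to 2.48). The ratio was 1.82 when each cell counted alike and 1.85 with clusters weighted alike, both within 2-fold. Hepatoma clusters differed: Tumor_4, Tumor_9, Tumor_7 and Tumor_3, at 22.8 to 28.3 CPM, lay under the immune level. The intervals of Tumor_4 (19.34 to 39.91) and Tumor_9 (21.45 to 30.41) held that level. St3gal4 went the other way, at 9.79 CPM in tumour cells and 29.9 CPM in immune cells, a ratio of 0.328 (0.283 to 0.381). St3gal3 was sparse, with 128 tumour and 35 immune UMIs, and its lower call, at a ratio of 0.494 (0.337 to 0.740), was lost in 8 of 10 alternatives. The ratio was 0.785 when each cell counted alike, 0.737 with clusters weighted alike and 0.514 without MDSC_5, a cluster of 37 cells in which the hepatoma list stood at 62.0% of its tumour level. St3gal2 (1.31, 1.01 to 1.72), St3gal6 (0.778, 0.652 to 0.934) and St6gal1 (1.08, 0.885 to 1.33) were within 2-fold. The St3gal6 ratio was 0.404 when each cell counted alike and 1.21 in cells of at least 2000 UMIs, which leave out most neutrophil-like MDSC.

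In all, 4 of 10 genes were called higher in tumour cells and 2 lower, where 20.2% and 25.1% of 12470 genes were called in those directions. Their median log2 ratio was 0.43, against -0.11 over all genes tested. The hepatoma marker list (Afp, Alb and 6 other secreted protein genes) was present in immune cells at 8.46% of its tumour level, the scale used here for free tumour RNA. All 8 of its markers were detected in every cell group described here. With that level subtracted from the immune clusters, the Slc35a1 ratio was 4.82 and the Nans ratio 2.44.

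**Figure D1:**
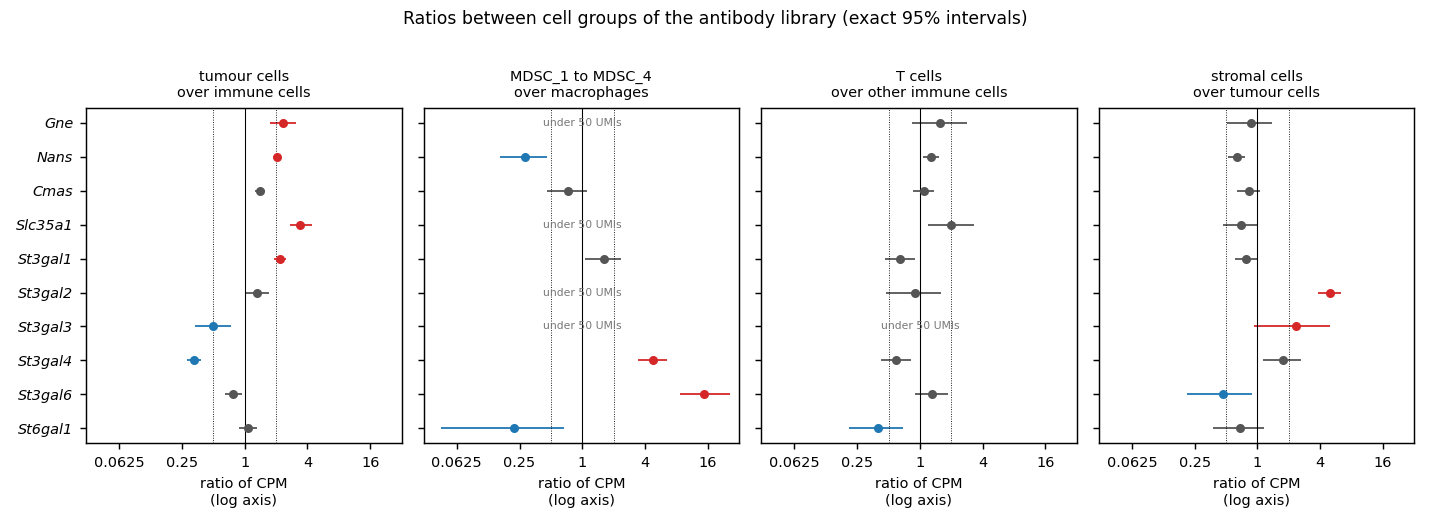
Ratio of CPM (log axis) for the 10 genes in 4 comparisons of cell groups of the antibody library, with exact 95% intervals; red points are called higher, blue points lower and grey points within 2-fold (dotted lines). St3gal4 lies at 0.328 for tumour over immune cells and at 4.72 for MDSC_1 to MDSC_4 over macrophages, and St3gal2 at 4.94 for stromal over tumour cells.

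Across the 11 hepatoma clusters Nans and Slc35a1 were nearly even, and St3gal1 was not. St3gal1 had 130.8 CPM in Tumor_1, 102.0 in Tumor_10, 101.9 in Tumor_6, 93.4 in Tumor_5 and 53.3 in Tumor_11. The other clusters had 36.4 in Tumor_8, 35.1 in Tumor_2, 28.3 in Tumor_4, 25.6 in Tumor_9, 23.5 in Tumor_7 and 22.8 in Tumor_3. Tumor_1, Tumor_10, Tumor_6 and Tumor_5 thus formed a high group, Tumor_11 lay between, and the intervals of Tumor_11 did not reach either side.

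The highest St3gal1 cluster was 5.73-fold above the lowest. Of 7645 genes, 9.95% were spread at least as far, and 63.7% were spread at least 2-fold, as were 7 of the 9 listed genes with enough UMIs. That measure was chosen after the values were seen. Nans ranged only from 116.7 CPM in Tumor_5 to 171.5 CPM in Tumor_7, 1.47-fold, and Slc35a1 from 20.9 CPM in Tumor_1 to 32.4 CPM in Tumor_3, 1.55-fold. Gne ranged 3.35-fold, from 9.65 CPM in Tumor_1 to 32.3 CPM in Tumor_11, and Cmas 2.69-fold.

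Tumor_1 is the cluster whose 10 most specific genes include Ndrg1 and the stress gene Ddit3. Against the other hepatoma cells, St3gal1 was higher in Tumor_1 (130.8 CPM against 51.7, ratio 2.53, 2.36 to 2.71), where 4.04% of 11367 genes were called higher. St3gal6 (5.92 CPM against 14.7, ratio 0.402, 0.299 to 0.530) and St6gal1 (7.24 CPM against 15.4, ratio 0.471, 0.361 to 0.605) were called lower, as were 20.9% of genes. The median log2 ratio of all genes in Tumor_1 was -0.34, and with that median set to 1 the ratios became 3.19 for St3gal1, 0.507 for St3gal6 and 0.595 for St6gal1, so both lower calls were lost. Cmas was highest in Tumor_1 too, at 86.6 CPM, with 80.5 in Tumor_10 and 78.7 in Tumor_6, and lowest in Tumor_3, at 32.2. Its Tumor_1 interval (80.67 to 92.86) overlapped those of Tumor_10 (71.29 to 90.55) and Tumor_6 (72.05 to 85.79), and Cmas was not called in Tumor_1.

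The other calls in single hepatoma clusters were few. St3gal1 was lower in Tumor_3 (ratio 0.329), Tumor_7 (0.353), Tumor_9 (0.385) and Tumor_4 (0.442), where 6.73%, 4.75%, 3.26% and 18.8% of genes were called lower. Tumor_4 held 32 St3gal1 UMIs, its cells were shallow at a median of 2483 UMIs, and its ratio was 0.699 when each cell counted alike. In Tumor_11, the hepatoma cluster with the highest hepatoma list, Gne stood at 32.3 CPM against 13.8 in the other hepatoma cells (ratio 2.35, 1.75 to 3.09, with 5.67% of genes higher). St3gal4 had 8 UMIs in Tumor_11 and a ratio of 0.483 (0.207 to 0.957, with 9.92% of genes lower). In Tumor_2, Tumor_5, Tumor_6, Tumor_8 and Tumor_10, 0 of the 10 were called, where 0.853% to 3.26% of genes were called higher and 3.04% to 8.16% lower.

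After each cell was thinned to 1000 UMIs, a St3gal1 UMI was expected in 12.01% of Tumor_1 cells (9.18 to 15.3) and 2.25% of Tumor_3 cells (1.00 to 4.11). Without thinning the shares were 82.0% and 32.04%, at median depths of 18449 and 20662.5 UMIs. Tumor_1 and Tumor_3 differed in St3gal1 at nearly equal depth, in both measures.

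**Figure D2:**
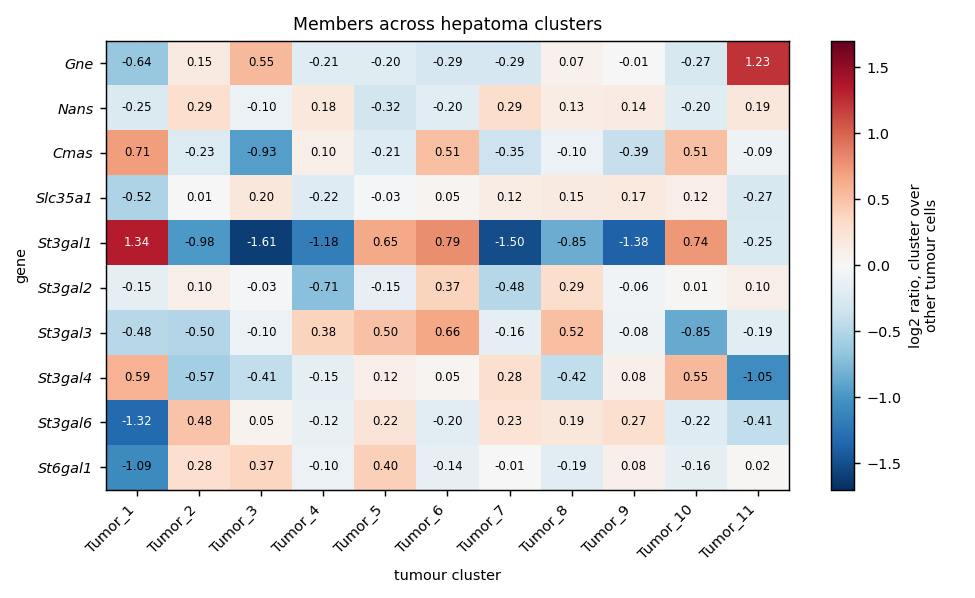
log2 ratio of each hepatoma cluster (columns) to the other hepatoma cells for the 10 genes (rows), with red above 0 and blue below. The St3gal1 row spans 1.34 in Tumor_1 to -1.61 in Tumor_3, while the Nans row stays between -0.32 and 0.29.

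The genes whose level was most like that of St3gal1 were sought over 26 clusters of at least 50 cells, by Pearson's r of log2(CPM + 10) among 8319 genes. They were Aff4 (0.896), a transcription elongation factor, Vegfa (0.884), the angiogenic growth factor, and Ndrg1 (0.884), a gene induced by low oxygen. Over the 11 hepatoma clusters alone, a choice made after seeing the values, the 3 nearest of 7346 genes were Efna1 (0.991), Nrn1 (0.978) and Ndrg1 (0.975). Ndrg1 stood at 853.7 CPM in Tumor_1, 291.1 in Tumor_6, 275.5 in Tumor_10, 169.3 in Tumor_5 and 106.0 in Tumor_11, and at 19.0 to 44.1 CPM in the other 6. Efna1, the nearest gene, stood at 216.5 CPM in Tumor_1, 190 in Tumor_6, 161 in Tumor_10 and 120.4 in Tumor_5. These genes were picked for their likeness to St3gal1, so their shared high clusters follow from that choice. A link of St3gal1 to low oxygen was not tested. All points come from 1 library, so these are descriptions.

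**Figure D3:**
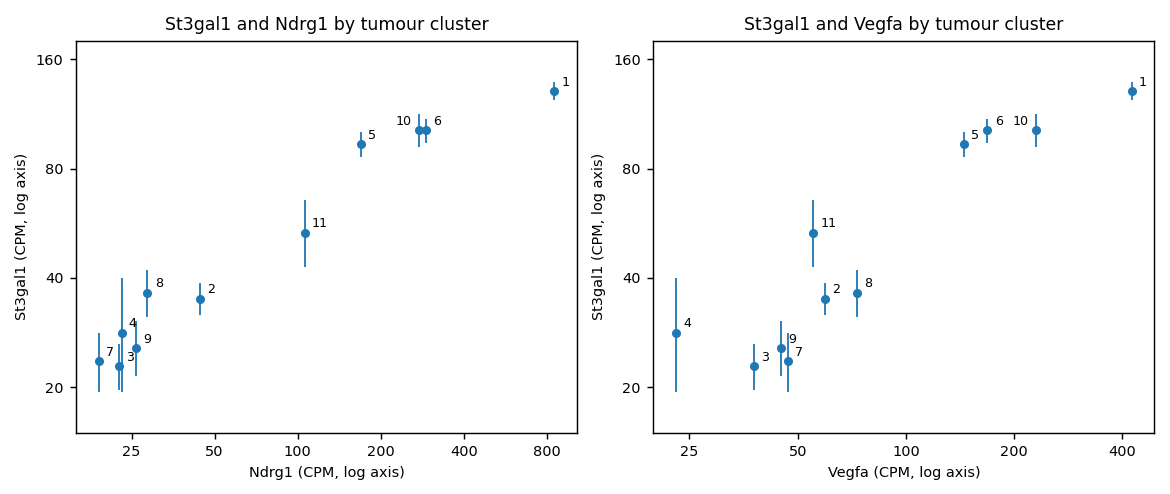
St3gal1 (CPM, with 95% Poisson intervals) against Ndrg1 and Vegfa (CPM) in the 11 hepatoma clusters, on log axes, each point labelled with its cluster number. Clusters 1, 10, 6 and 5 lie at the upper right, at 93.4 to 130.8 for St3gal1. Both genes were picked for a pattern like that of St3gal1 over 26 clusters, and Vegfa was not among the 3 nearest over hepatoma clusters.

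Among myeloid cells, St3gal4 and St3gal6 were called higher in neutrophil-like MDSC than in macrophages, as were 12.2% of 7599 genes. The synthesis enzyme Nans and St6gal1 were called lower, as were 41.1% of genes. St3gal4 had 126.0 CPM in MDSC_1, 88.6 in MDSC_3, 76.3 in MDSC_2 and 63.0 in MDSC_4, against 28.6 in Macrophage_3, 18.9 in Macrophage_2, 16.9 in Macrophage_1 and 15.1 in Macrophage_4. The lowest MDSC value was above the highest macrophage value, but the intervals of MDSC_4 (30.2 to 115.8) and Macrophage_3 (16.6 to 45.7) overlapped. Summed, the level was 92.0 CPM in MDSC_1 to MDSC_4 and 19.5 CPM in macrophages, a ratio of 4.72 (3.40 to 6.56).

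St3gal6 had 133.6 CPM in MDSC_2, 75.3 in MDSC_3, 56.7 in MDSC_4 and 27.6 in MDSC_1, against 13.4 in Macrophage_3, 4.57 in Macrophage_2, 2.11 in Macrophage_1 and 0 in Macrophage_4. The values again did not overlap, while the intervals of MDSC_1 (11.1 to 56.8) and Macrophage_3 (5.80 to 26.5) did. Of 7599 genes, 10.3% had every MDSC value above every macrophage value, and 28.2% had every one below, as Nans and St6gal1 did. The summed level was 71.9 CPM in MDSC_1 to MDSC_4 and 4.87 CPM in macrophages, a ratio of 14.8 (8.70 to 26.2). Between MDSC clusters, MDSC_2, the cluster with 4 neutrophil markers among its top genes, held 28 St3gal6 UMIs and MDSC_1 held 7, a ratio of 4.85 (2.07 to 13.1). St3gal4 had 16 UMIs in MDSC_2 and 32 in MDSC_1, a ratio of 0.606 (0.310 to 1.14) whose interval holds 1. That pair of clusters was picked after the values were seen, and it is under the minimum of 50 UMIs.

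Nans was called lower in MDSC, at 20.04 CPM against 70.5 in macrophages (ratio 0.284, 0.163 to 0.464), and so was St6gal1, with 3 UMIs against 63 (ratio 0.219, 0.0440 to 0.670). Cmas (0.729, 0.462 to 1.11) and St3gal1 (1.61, 1.07 to 2.35) were within 2-fold, and the other 4 genes were under the UMI minimum. Of 6 genes tested, 2 were called higher and 2 lower, where 12.2% and 41.1% of 7599 genes were called. The median log2 ratio of all genes was -0.64, and relative to it the ratios were 7.36 for St3gal4, 23.0 for St3gal6, 2.50 for St3gal1 and 1.14 for Cmas, which crossed 1. On that scale Nans was at 0.444 and St6gal1 at 0.342, both nearer 1. With free RNA subtracted Nans was at 0.118, so its ratio ranged from 0.118 to 0.444 over the alternatives. Without Macrophage_2 the ratios were 4.598 for St3gal4 and 14.1 for St3gal6, and St6gal1 fell under the UMI minimum.

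At equal depth the pattern was the same for St3gal4 and St3gal6. Thinned to 1000 UMIs, a St3gal4 UMI was expected in 7.39% of MDSC_1 to MDSC_4 (5.05 to 10.4) and 1.85% of macrophages (0.857 to 3.52). For St3gal6 the shares were 8.78% (6.30 to 12.1) in MDSC and 0.481% (0.0503 to 1.49) in macrophages. Thinning kept 405 of 707 MDSC and 482 of 532 macrophages. Unthinned, St3gal4 was found in 9.62% of MDSC and 11.1% of macrophages, whose median depths were 1047 and 6946.5 UMIs, and St3gal6 in 8.20% and 3.57%. CD3_T, with a median depth of 1367 UMIs near that of MDSC, had a thinned St3gal4 share of 0.485% (0.0222 to 4.79, from 1 UMI). Its thinned St3gal6 share was 3.49% (0.964 to 8.74), and its St3gal6 level of 42.2 CPM (19.3 to 80.05) was above the 27.6 CPM of MDSC_1 within overlapping intervals.

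The hepatoma list stood at 8.92% of its tumour level in MDSC and at 5.72% in macrophages. Measured St3gal4 was 105 times the level that free RNA would give in MDSC, and St3gal6 was 60.0 times it. For Nans the figure was only 1.58 times and for Slc35a1, with 1 UMI, 0.459 times, and both intervals hold that level (Nans 11.7 to 32.1 CPM against 12.7, Slc35a1 0.0299 to 6.57 CPM against 2.57). In MDSC_1 to MDSC_4 all 7 macrophage markers had UMIs, summing to 1023 to 1169 CPM per cluster, against 5766 to 18604 CPM in macrophage clusters. The same list, which includes Apoe, summed to 2819 to 12544 CPM in tumour clusters, so it is not particular to macrophages here. Dendritic and natural killer cell markers were all at 0 in MDSC. The part of other cells' RNA in the lower Nans and St6gal1 levels was not tested.

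**Figure D4:**
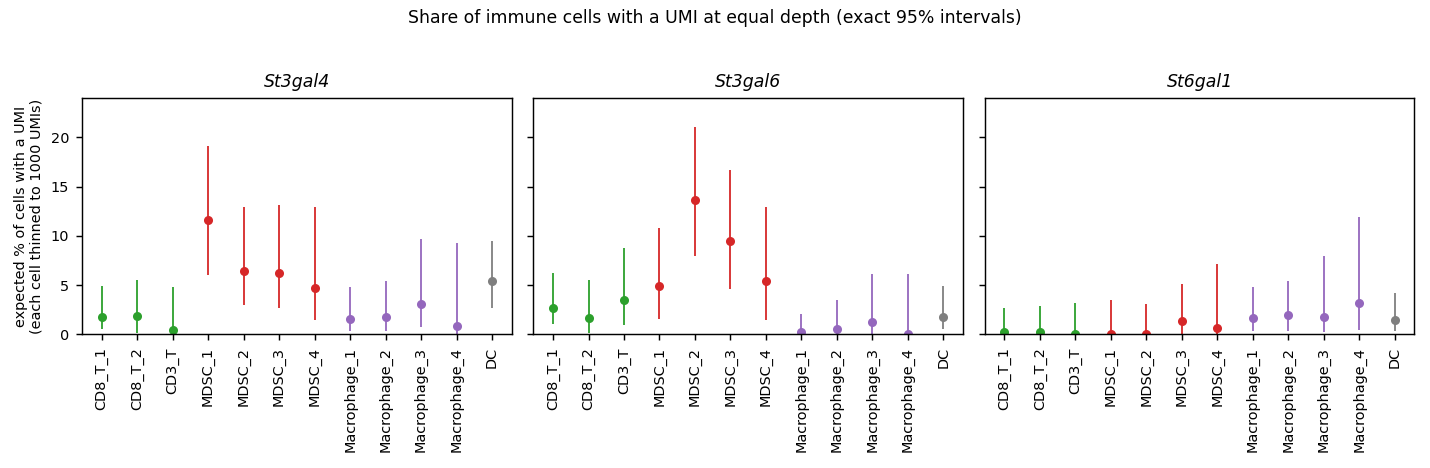
Expected percentage of cells with a UMI of St3gal4, St3gal6 and St6gal1 in 12 immune clusters after each cell was thinned to 1000 UMIs, with exact 95% intervals on the expected number rounded to whole cells. MDSC_1 is highest for St3gal4 at 11.6% and MDSC_2 for St3gal6 at 13.7%, while St6gal1 is at 0 in both.

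Genes with a pattern most like St3gal4 over the 26 clusters were Marcksl1 (0.934), Il1r2 (0.932), a decoy receptor for interleukin-1, and Mmp9 (0.929), a neutrophil granule protease. Mmp9 had 846.4 CPM in MDSC_1 to MDSC_4, 26.7 in macrophages and 0.512 in tumour cells. The nearest to St3gal6 was Sh2d3c (0.889), to Nans Mrpl21 (0.975), to Slc35a1 Foxp4 (0.938), to St3gal2 Sh3pxd2a (0.879), to St6gal1 Pgpep1 (0.868), to Gne Bmi1 (0.856) and to Cmas Immp1l (0.789).

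In T cells 1 gene was called, St6gal1, which was lower. It had 14 UMIs in T cells and 97 in other immune cells, or 6.19 CPM against 15.7, a ratio of 0.394 (0.208 to 0.694), and without CD3_T the ratio was 0.435. The call was lost with each cell counted alike (0.513) and with clusters weighted alike (0.672), and in both of these St3gal4 was called lower in its place. It was the 1 lower call among 9 genes tested, and 0 were called higher, where 22.0% and 12.7% of 9278 genes were called. Slc35a1 lay at the 2-fold line, at 13.3 CPM in T cells and 6.64 CPM in other immune cells (ratio 1.999, 1.21 to 3.28), and it was past that line in 5 of 9 alternatives, up to 3.10 with free RNA subtracted. St3gal4 (0.594, 0.420 to 0.823) and St3gal1 (0.645, 0.459 to 0.890) were lower by less than 2-fold, and Gne was at 1.57 (0.845 to 2.85).

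Within T cells St6gal1 was too sparse for a comparison. It had 8 UMIs in the 47 cells of CD4_T (49.4 CPM, 21.3 to 97.4) and 1 UMI in CD8_T_2 (2.55 CPM), far under the minimum of 50. CD8_T_1 had 5 UMIs (3.35 CPM) and CD3_T 0. The 18 B cells held 9 UMIs in 5 cells (99.0 CPM, 45.3 to 188), also under it. Thinned shares were 4.52% of 47 cells in CD4_T, 7.37% of 16 B cells and 0.296% in CD8_T_2. With so few CD4_T and B cells, these shares are descriptions only. Between CD8_T_1 and CD8_T_2 only Nans (ratio 1.22, 0.820 to 1.88) and Cmas (0.860, 0.5 to 1.55) could be tested, and 0 were called, where 9.01% of 4439 genes were called higher and 2.19% lower.

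In macrophages and DC, St6gal1 had 26.9 CPM in Macrophage_3, 22.7 in Macrophage_4, 17.7 in Macrophage_2, 14.02 in DC and 9.14 in Macrophage_1. Against other macrophages, Macrophage_1 was lower (ratio 0.453, 0.226 to 0.846, with 8.98% of 7116 genes lower). Cmas was higher in Macrophage_4 (ratio 2.05, 1.00 to 3.77, from 11 UMIs, with 3.65% of genes higher), a cluster where the hepatoma list reached 18.0% of its tumour level. St3gal4 in DC, at 46.4 CPM, lay between macrophages and MDSC.

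St3gal2 was high in Fibroblast&Endothelial_1 rather than in stromal cells at large. It had 59.6 CPM in Fibroblast&Endothelial_1, the fibroblast-rich cluster, and 15.5 CPM in Fibroblast&Endothelial_2, the cluster with endothelial markers among its top genes, a ratio of 3.85 (1.57 to 12.2). That was 1 of 4 genes tested, with 16.8% of 3892 genes higher and 5.73% lower. This pair was picked after the values were seen. Over both, the level was 49.8 CPM in stromal cells and 10.1 CPM in tumour cells, a ratio of 4.94 (3.82 to 6.31). The interval of Fibroblast&Endothelial_2 (5.03 to 36.2 CPM) held that tumour level. Thinned shares were 6.08% in Fibroblast&Endothelial_1 and 0.984% in tumour cells, and unthinned shares were 52.1% and 16.8%, at median depths of 10856 and 20428 UMIs. The 26-cluster order placed Fibroblast&Endothelial_1 first. St3gal2 had 0 UMIs in MDSC_2, MDSC_3 and MDSC_4, where 3 counts would be 13.3 to 18.9 CPM, above the tumour level, so a difference was not detectable there.

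St3gal3 was also called higher in stromal cells, from 7 UMIs (ratio 2.36, 0.932 to 5.01), and the ratio was 1.74 without Fibroblast&Endothelial_2. St3gal6 was lower, with 6.22 CPM in stromal cells and 13.5 CPM in tumour cells (ratio 0.463, 0.211 to 0.882, from 9 stromal UMIs), and the ratio was 0.637, within 2-fold, with clusters weighted alike. Of 10 genes, 2 were called higher and 1 lower, where 20.8% and 18.1% of 11795 genes were called. Fibroblast&Endothelial_2 held the hepatoma list at 40.7% of its tumour level and Fibroblast&Endothelial_1 at 4.03%. The part of free tumour RNA in the values of Fibroblast&Endothelial_2 was not tested beyond the subtraction, which left St3gal2 at 4.82.

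**Figure D5:**
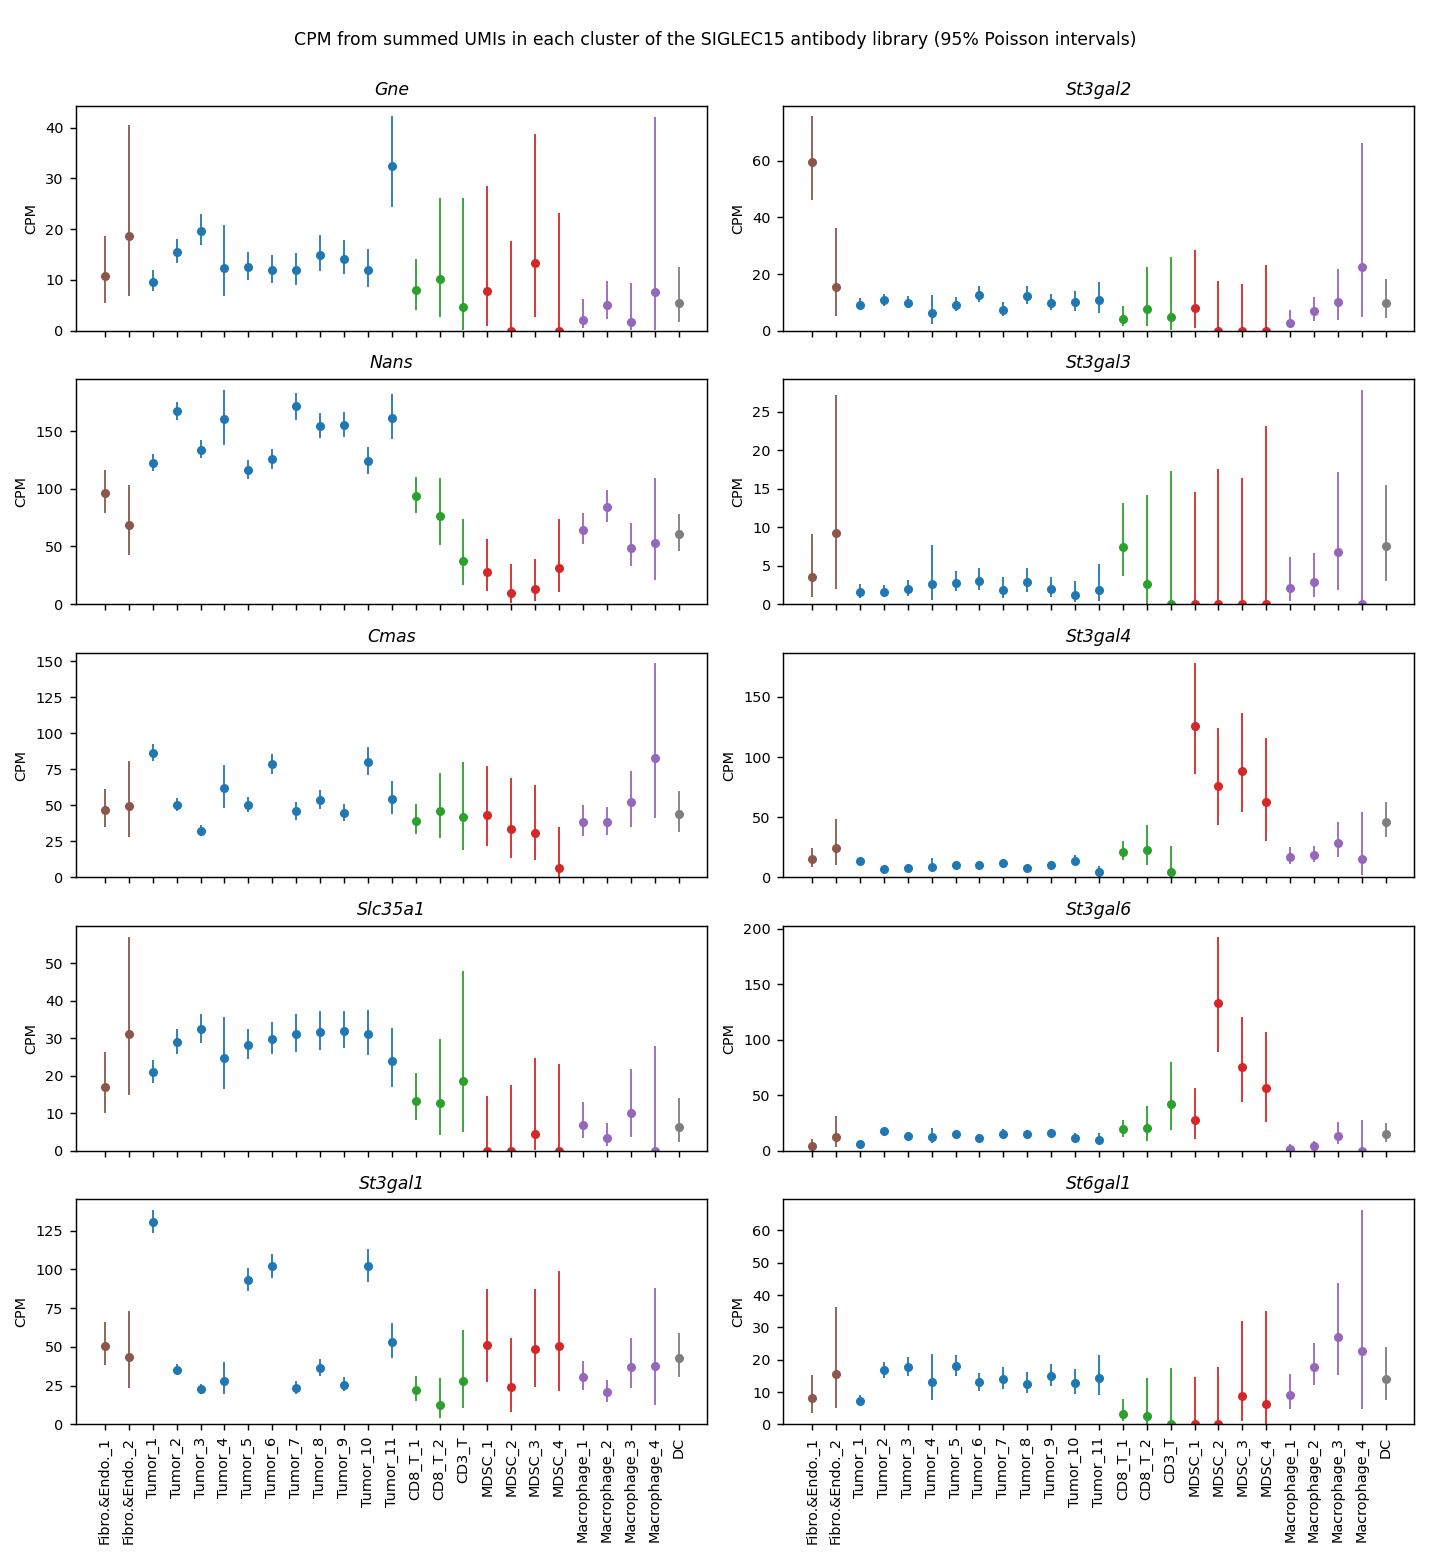
Level (CPM, from summed UMIs) of each of the 10 genes (panels) in 25 clusters of the antibody library, with 95% Poisson intervals; brown marks stromal, blue hepatoma, green T cell, red MDSC, purple macrophage and grey DC clusters. St3gal2 peaks at 59.6 in Fibroblast&Endothelial_1, St3gal1 at 130.8 in Tumor_1, St3gal4 at 126.0 in MDSC_1 and St3gal6 at 133.6 in MDSC_2.

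When the 26 clusters were ordered by level, few neighbours had intervals that did not overlap: 2 of 25 pairs for St3gal1, 1 of 25 for Gne and 0 of 25 for the other 8 genes. Neighbours in a sorted order are the closest values by construction, so their intervals can overlap even where a gene ranges widely. St3gal4, for 1, ranged from 4.69 to 126.0 CPM. Overlap leaves the order of neighbouring clusters mostly unsettled. The contrasts above between cell classes rest on groups of clusters, while those of Tumor_1, Tumor_11 and other single clusters do not. St3gal3 in particular held 174 UMIs in all cells and was 0 in MDSC_1 to MDSC_4, where 3 counts would be 3.54 CPM.

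Other genes of the pathway were counted from 3 lists, of which 29 of 32 genes were among the matrix rows. The shares of all genes called, against which these counts are to be read, were 20.2% higher and 25.1% lower for tumour over immune cells and 12.2% and 41.1% for MDSC over macrophages. They were 12.7% and 22.0% for T over other immune cells and 20.8% and 18.1% for stromal over tumour cells. For synthesis and turnover, 0 of 9 tested genes were higher and 3 lower in tumour than immune cells. Cmah, which hydroxylates the activated sialic acid, had 6 UMIs in tumour cells and 91 in immune cells (ratio 0.00890). Npl, which breaks sialic acid down, had 0 and 122 UMIs, and Ctsa, which protects lysosomal sialidase, had a ratio of 0.348. In MDSC_1 to MDSC_4 against macrophages 0 of 5 were higher and 4 lower, among them Renbp, an amino sugar epimerase (ratio 0.0691). In T cells against other immune cells 0 of 9 were higher and 6 lower, among them Neu1, the lysosomal sialidase (ratio 0.286). In stromal against tumour cells 2 of 8 were higher and 1 lower, with 134 Cmah UMIs in stromal cells and 6 in tumour cells.

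Of the other sialyltransferases, 0 of 4 tested were higher and 3 lower in tumour than immune cells, where 20.2% and 25.1% of all genes were called. St8sia4, which builds polysialic acid, had 4 UMIs in tumour cells and 306 in immune cells. St3gal5, which makes the ganglioside GM3, had a ratio of 0.148 and St6galnac4, which extends O-glycans, one of 0.240. In MDSC against macrophages 1 of 4 was higher, St3gal5 (2.80, 1.63 to 4.72), and 1 lower, St6galnac4 (0.355). In T cells against other immune cells 0 of 4 were higher and 1 lower, and in stromal against tumour cells 1 of 3 was higher and 0 lower; the gene called was St3gal5 in both.

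The acceptor-building list holds enzymes that make the chains to be capped. In tumour over immune cells 1 of 6 was higher, C1galt1, which makes the O-glycan core that St3gal1 caps, at 64.4 CPM in tumour cells and 30.0 CPM in immune cells (ratio 2.15, 1.89 to 2.45), and 2 were lower. In MDSC over macrophages 1 of 6 was higher, Gcnt1, the core branching enzyme of O-glycans (3.19, 2.25 to 4.50), where 12.2% of all genes were. Mgat1 (0.452) and Mgat2 (0.450), which start N-glycan branches, were the 2 of 6 called lower, a smaller share than the 41.1% of all genes. In T cells over other immune cells 0 of 6 were higher and 2 lower, and in stromal over tumour cells 2 of 5 were higher, Mgat1 (3.45) and Mgat2 (2.04), and 0 lower.

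On GRCm38, from GENCODE by symbol, Gne lies at chr4:44034075-44084177, Nans at chr4:46489248-46503632, Slc35a1 at chr4:34663257-34687438 and St3gal3 at chr4:117932154-118134914. Cmas lies at chr6:142756686-142775714, St3gal1 at chr15:67102875-67176830, St3gal2 at chr8:110919922-110972480 and St3gal4 at chr9:35046576-35119268. St3gal6 lies at chr16:58468125-58524243 and St6gal1 at chr16:23224740-23360350. None of the 10 shares an exon on its own strand with another gene of that annotation.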

How the data were processed

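Single cells of grafted tumours were profiled on the 10x Genomics 3′ v2 platform, 1 library per group. Cell Ranger 2.1.1 appears among the tools per the submitters' processing notes. Genome build, cell filtering and the clustering method are not stated in those notes or in any label. The authors deposited a list of cells with cluster names and a matrix in natural log units, log of 1 plus a gene's UMI count scaled to 10000 UMIs per cell, as tested on the values. All 15274637 values above 0 gave whole UMIs within 0.001. The IgG list named 5765 cells. In the IgG matrix as used, rows were complete for 105 genes, 0 of them among the 10. UMIs were summed per cluster and given as CPM with exact Poisson 95% intervals. Ratios had exact conditional 95% intervals, and shares had Clopper-Pearson 95% intervals. Thinned shares are expected values for cells thinned to 1000 UMIs, with shallower cells left out. The free RNA level was the tumour CPM of a gene times the cluster's share of the tumour level of the hepatoma marker list. A gene was called at a ratio of at least 2 either way with at least 50 UMIs over both groups. Genes of like pattern were sought among those with at least 500 UMIs. The named genes were all 10 members and called genes of 3 pathway lists. Members, lists and tests were chosen with earlier results of these data known. The ratio step was tested on simulated counts. Doublet scores came from scrublet in scanpy 1.11.5. Python 3.11.15, numpy 2.4.6, pandas 2.3.3, scipy 1.17.1 and matplotlib 3.10.9 were used. Alternatives were other UMI minimums, scalings, folds, thinning depths and cells or clusters left out.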

Additional observations from a re-analysis of the deposited data

How the results depend on the processing

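No paired analysis was possible because there was 1 library per group and no result comes from a replicated test. Of 403 alternatives to 46 ratios of single genes, 362 stayed inside the interval of the reported ratio, 41 moved outside it and 0 called ratios changed direction. Of 124 alternatives to 12 counts of called genes, 100 were within 1.5 times the reported count and 24 were not. For tumour over immune cells the 2 lower calls became 1, with St3gal3 lost, in 6 settings: totals without ribosomal and mitochondrial genes, the median ratio set to 1, without MDSC_5, without MDSC_5, Tumor_4 and Macrophage_4, without the 5% of cells with the highest doublet score, and free RNA subtracted. St3gal3 was also within 2-fold with a mean over cells and with clusters weighted alike. For MDSC over macrophages the 2 lower calls became 5 with no UMI minimum and 1 without Macrophage_2. For T over other immune cells the 0 higher calls became 1 with at least 2000 UMIs (St3gal6, ratio 2.45), and 1 (Slc35a1) with a mean over cells, without ribosomal and mitochondrial genes, with clusters weighted alike, without the highest doublet scores and with free RNA subtracted; at 1.5-fold there were 2 higher and 3 lower. For stromal over tumour cells the 1 lower call became 2 with a mean over cells and at 1.5-fold, and 0 with clusters weighted alike, and the 2 higher calls became 1 without ribosomal and mitochondrial genes and without Fibroblast&Endothelial_2. For CD8_T_1 over CD8_T_2 the 0 higher calls became 1 with no UMI minimum. Over single hepatoma clusters the 2 higher and 7 lower calls became 8 and 13 at 1.5-fold. The cause of these moves was not tested. Thinned shares follow the depth by construction, and 41 of their 80 alternatives moved. Leaving out predicted doublets was not run, because the caller marked 3 of 5482 cells (0.0547%). The 239 cells with the highest doublet scores were unevenly spread: 64 of 95 Unknown cells and 25 of 37 in MDSC_5. There were 16 of 105 in Macrophage_4, 14 of 54 in Fibroblast&Endothelial_2 and 27 of 500 in Tumor_2. The part of doublets in the hepatoma list of those clusters was not tested. Settings that leave out MDSC_5 alone, Macrophage_2, Fibroblast&Endothelial_2 or the highest doublet scores, that subtract free RNA, and all those for single hepatoma clusters, were chosen after seeing the data. Depth limits the neutrophil-like MDSC and Macrophage_4, at medians of 1047 and 1053 UMIs per cell.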
